A study of Mus musculus with 502 samples.

Results

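The regions described here are the silencers listed in 14 windows of the human genome (build hg38) laid around genes that direct kidney development. A silencer, here, is a short stretch of DNA that lowered expression of a reporter plasmid in Ss-STARR-seq, an assay that carries genomic fragments into cells on plasmids and compares how often each is read from the input DNA and from its transcripts. A listed silencer was taken as a member when its midpoint fell inside a window. There were 864 such silencers among 397137 in the 3 deposited lists: 265 of 125249 from 293T, 308 of 134159 from K562 and 291 of 137729 from LNCap. The windows carry the names of 12 genes (PAX2, PAX8, WT1, SIX2, SALL1, EYA1, LHX1, OSR1, WNT4, GDNF, RET and EMX2). The remaining 2, named here by position, are the chromosome 14 window (60.4 to 60.95 Mb) and the distal chromosome 17 window (37.4 to 37.95 Mb). Windows measured 0.5 to 0.85 Mb, 8 Mb in all, or 0.259% of the genome.

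The 3 groups compared were 293T, a transformed line that came from embryonic kidney cells, K562, a leukaemia line, and LNCap, a prostate cancer line, each untreated as far as the labels say. The labels name 502 libraries (102 outputs and 1 input for 293T, 180 outputs for K562, 179 outputs and 40 inputs for LNCap), but each line is represented by 1 pooled list. There are therefore no replicates and no test between lines. Intervals given below are 95% intervals that cover counting error only, and the read depth behind a listed silencer is unknown. All libraries are labelled as mouse, whereas the lines and the build are human, and the lists were read as human. The assay reads a fragment on a plasmid, away from the chromatin of its own locus, and the lists hold no expression values, so whether the lines express these kidney genes was not measured here.

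The kidney forms from a strip of intermediate mesoderm in which OSR1, LHX1, PAX2 and PAX8 set up the nephric lineage. A bud of the nephric duct then grows toward the mesenchyme, drawn by the ligand GDNF acting on its receptor RET. The mesenchyme, kept as a progenitor pool by factors such as SIX2, in turn becomes epithelium under WNT4. Outside the tissues that use them such developmental regulators are typically kept silent. Gene starts and exons on hg38 were not used here, so positions are given within the windows and no silencer was assigned to a promoter, exon or intron. Human sequence was not used here, and none is printed.

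In total the windows held fewer silencers per Mb than the whole lists. The members amounted to 33.1 silencers per Mb in 293T (29.3 to 37.4), against 40.6 over the whole list, a ratio of 0.816 (0.721 to 0.921). In K562 the density was 38.5 per Mb (34.3 to 43.0) against 43.5, a ratio of 0.886 (0.789 to 0.990). In LNCap it was 36.4 per Mb (32.3 to 40.8) against 44.6, a ratio of 0.815 (0.724 to 0.914). Against the whole list, the shortfall rested on the 2 chromosome 17 windows, which were nearly empty. Without them the 293T ratio was 0.936 (0.826 to 1.06), the K562 ratio turned to 1.01 (0.900 to 1.13) and the LNCap ratio was 0.925 (0.821 to 1.04). Each of these intervals included 1. Against the 1 Mb on either side of each window, a reference chosen after seeing the data, the 12 windows outside chromosome 17 were sparser in every list. They held 38.0 silencers per Mb in 293T against 47.0 in those surroundings, a ratio of 0.809 (0.704 to 0.926). In K562 they held 43.9 per Mb against 53.3, a ratio of 0.824 (0.725 to 0.935). In LNCap they held 41.3 against 54.9, a ratio of 0.752 (0.659 to 0.856). In every line those surroundings were denser than the mean of the whole list. Of these 12 windows, 7 (PAX2, PAX8, SALL1, EYA1, WNT4, GDNF and RET) were sparser than their surroundings in all 3 lists. How often other parts of the genome are sparser than their own surroundings was not counted. Whether this number is particular to these windows is therefore unknown. Against the mean of their own chromosomes, all 14 windows together had ratios of 0.785, 0.827 and 0.761 (293T, K562 and LNCap). These ratios include the 2 nearly empty chromosome 17 windows, and neither intervals nor values without those windows were computed.

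**Figure D1:**
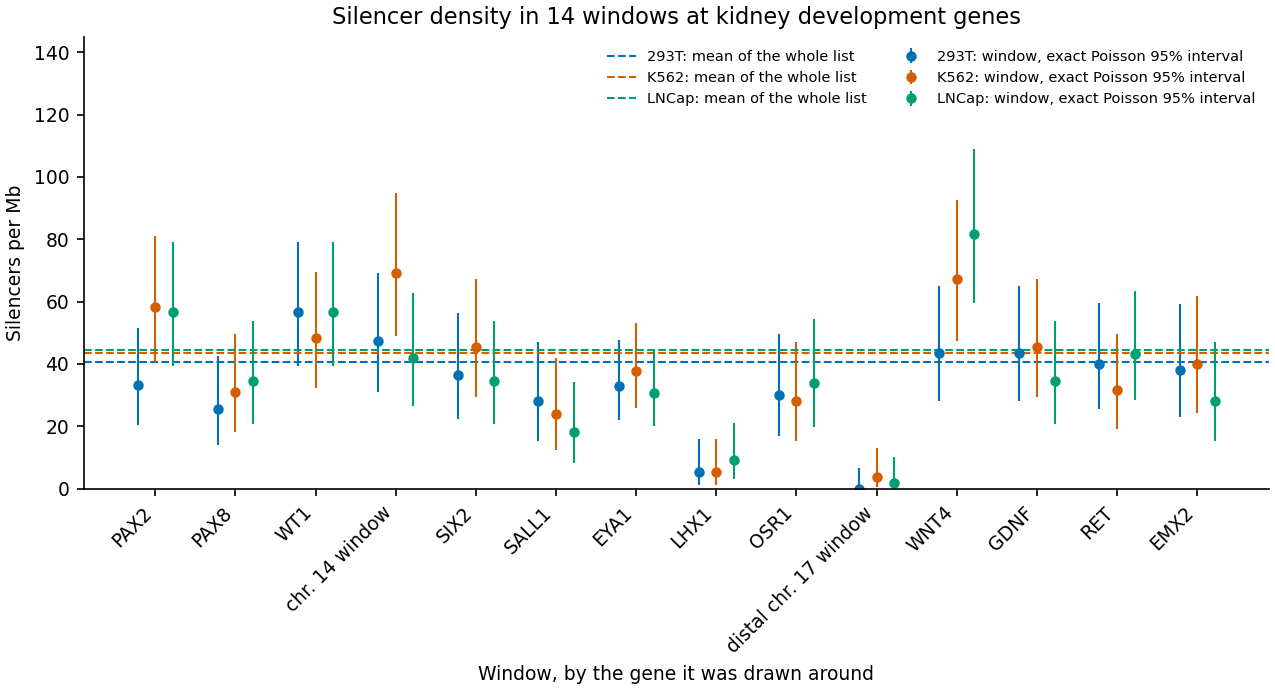
Silencers per Mb (vertical axis) in each of the 14 windows (horizontal axis), with 1 point per list and exact Poisson 95% intervals; dashed lines give the mean density of each whole list (40.6, 43.5 and 44.6 per Mb). The LHX1 and distal chromosome 17 windows lie near 0 in all 3 lists, and the WNT4 window reaches 81.8 per Mb in LNCap.

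Among the early regulators of the nephric lineage, the OSR1 window was filled about evenly by the 3 lists. OSR1 encodes a zinc finger factor that is one of the first marks of intermediate mesoderm. Its 0.5 Mb window on chromosome 2 (19.1 to 19.6 Mb) held 15 silencers from 293T, 14 from K562 and 17 from LNCap. The densities were 30.0 (16.8 to 49.5), 28.0 (15.3 to 47.0) and 34.0 (19.8 to 54.4) per Mb. They lay below the means of their lists, but each interval included the mean. Of all 500 kb bins that held any silencer, 21.1%, 17.2% and 27.6% were sparser in the same list. None of the 46 silencers of the OSR1 window overlapped a silencer of another list. Over the whole genome 7.10% of merged regions were held by more than 1 list, and the upper bounds of the OSR1 shares, 18.4% to 21.5%, lie above every whole-list share. The top scores there were also modest, at 3.2 for 293T, 2.7 for K562 and 3.1 for LNCap on the authors' activity score, whose lowest listed value is 2. The scale of that score is not stated, so it is used only to rank silencers within a list.

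PAX2 and PAX8 encode related paired-box factors that act side by side in the nephric lineage. The PAX2 window was the denser in every list, but its density intervals overlapped those of the PAX8 window. The PAX2 window (chromosome 10, 100.5 to 101.1 Mb) held 20 silencers from 293T, 35 from K562 and 34 from LNCap. With counts scaled to the size of each list, the 293T count was 0.629 times the mean of the other 2, the lowest 293T ratio among the 12 windows that held at least 20 silencers. Counted pair by pair, 293T stood at 0.612 times K562 (0.335 to 1.09) and 0.647 times LNCap (0.353 to 1.16), so neither difference exceeds counting error. The PAX8 window (chromosome 2, 112.95 to 113.5 Mb) held 14, 17 and 19 silencers, with a 293T ratio of 0.845. Like 6 other windows, it was sparser in every list than the 1 Mb on either side of it, at 25.5, 30.9 and 34.5 per Mb against 45.5, 60.0 and 51.0.

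The PAX2 window also held the highest scores of LNCap in these loci and the widest stretch of bare sequence outside chromosome 17. A LNCap silencer at 101017816 to 101017866 had a score of 7.4 and overlapped a K562 silencer at 101017783 to 101017850 with a score of 3.7. A second LNCap silencer, at 100680901 to 100680951, had a score of 5.5 and also overlapped a K562 silencer. From the end of that silencer no list held any silencer up to 100770546, a gap of 89.6 kb. Gaps at least as long made up 0.183% of all gaps between neighbouring regions of the 3 lists, whose median was 4.08 kb. That share applies to a gap taken at random, whereas this gap was picked as the longest outside chromosome 17. The 14 windows held 797 merged regions, so a share this small does not make the gap unusual. Across the 12 windows with at least 20 silencers the longest gap ran from 28.5 kb, in the chromosome 14 window, to these 89.6 kb, with a median of 55.7 kb. In the PAX2 window K562 and LNCap shared 8 regions, 293T and K562 shared 1, and 293T and LNCap shared none.

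LHX1 encodes a LIM homeodomain factor required in the nephric duct and later in the forming tubule. Its window (chromosome 17, 36.65 to 37.2 Mb) held only 3 silencers from 293T, 3 from K562 and 5 from LNCap. The distal chromosome 17 window held 0, 2 and 1. The exact interval of the count of 0 reaches 6.71 per Mb. These were the only windows of the 14 with fewer than 20 silencers over the 3 lists, a state found in 2.83% of the 500 kb bins that held any. Bins with at most 11 silencers, the number in the LHX1 window, made up 1.88%, and bins with at most 3, the number in the distal window, made up 0.991%.

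Both windows lie in 1 sparse stretch of chromosome 17 that is common to the 3 lists. Its borders, set after the counts had been seen, are the nearest 100 kb bins outside the windows with at least 5 silencers over the lists. From 35.8 to 38.8 Mb, a length of 3.0 Mb, there were 6 silencers from 293T, 7 from K562 and 6 from LNCap, or 2.00 (0.734 to 4.35), 2.33 (0.938 to 4.81) and 2.00 (0.734 to 4.35) per Mb. The 1 Mb before it held 42, 43 and 48 silencers, and the 1 Mb after it held 58, 87 and 110. Of its 30 bins of 100 kb, 24 held no silencer of any list, whereas 8.79% of such bins of the genome were empty, centromeres and chromosome Y included. These contrasts follow in part from the choice of borders, which leaves only bins with fewer than 5 silencers between the windows and the borders. The intervals of the 3 lists overlapped almost fully, so the stretch did not set 293T apart from the other lines. How many input fragments covered the stretch, and how uniquely they align, was not tested.

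**Figure D2:**
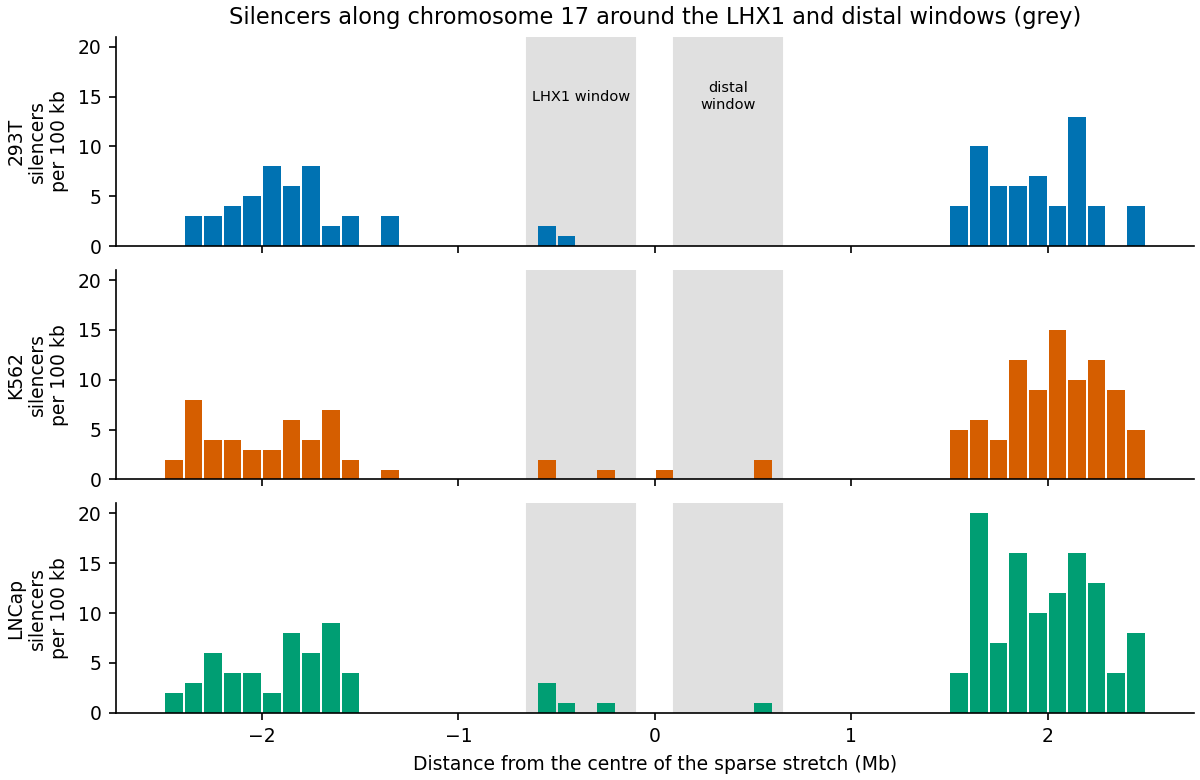
Silencers per 100 kb (vertical axes) in 293T, K562 and LNCap against the distance from the centre of the sparse stretch in Mb (horizontal axis); grey bands mark the LHX1 and distal chromosome 17 windows. Over the 3.0 Mb stretch the lists hold 6, 7 and 6 silencers, with well-filled bins on both sides.

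Several of the few K562 and LNCap silencers of the LHX1 window lay close to each other. The highest K562 score in all 14 windows, 5.3, belonged to a silencer at 36739150 to 36739350, which overlapped a LNCap silencer at 36739050 to 36739251 with a score of 3.1. Of the 3 K562 silencers, 2 overlapped LNCap. The third, at 37071101 to 37071201 with a score of 3.4, lay beside a LNCap silencer at 37070851 to 37070951 with a score of 3.6. A further LNCap silencer, at 36871901 to 36871951 with a score of 2.2, lay far from any of K562 and nearer to a 293T silencer at 36862001 to 36862051. The 3 silencers of 293T in the window scored 2.4, 2.0 and 2.0, and overlapped none of the other lists. In the distal window a K562 silencer began at 37821001, exactly where a LNCap silencer ended. With so few silencers, these shares carry wide intervals (2 of 3 gives 20.8 to 93.9%).

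The windows of the mesenchymal factors ranged from sparse to dense. SALL1, a zinc finger factor needed for the bud to invade the mesenchyme, had the fewest silencers outside chromosome 17, 35 in a window of 0.5 Mb (chromosome 16, 50.9 to 51.4 Mb): 14 from 293T, 12 from K562 and 9 from LNCap. The K562 density of 24.0 per Mb (12.4 to 41.9) and the LNCap density (interval 8.23 to 34.2 per Mb) lay below the mean of their lists, while the 293T density of 28.0 (15.3 to 47.0) did not exclude it. The LNCap count was 0.649 times the mean of the other lists and the 293T count 1.44 times, the highest 293T ratio of any window compared. On 9 to 14 silencers these ratios are imprecise: 293T stood at 1.71 times LNCap, with an interval of 0.690 to 4.48. Scaled on chromosome 16 alone, the 293T ratio was 1.60, past a fold of 1.5, and the LNCap ratio 0.617. No silencer of the SALL1 window was shared between lists, but on so few silencers the upper bounds of its shares, 21.5% to 29.9%, lie above every whole-list share.

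EYA1, a coactivator that works with SIX2 and its relatives upstream of GDNF, had the longest window (chromosome 8, 70.95 to 71.8 Mb). It held 28 silencers from 293T, 32 from K562 and 26 from LNCap, or 32.9, 37.6 and 30.6 per Mb. Only 1 of its 85 merged regions was held by more than 1 list, a 293T and K562 region at 71492451 to 71492601. None of its 32 K562 silencers overlapped LNCap, for which the interval reaches up to 10.7%, against 15.7% over the whole K562 list. EYA1, OSR1 and SALL1 were singled out as windows with little or no sharing after these counts were seen, and the difference from other windows was not tested.

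WT1, a zinc finger factor needed for survival of the mesenchyme and later in podocytes, lay in a well-filled window (chromosome 11, 32.1 to 32.7 Mb) with 34 silencers from 293T, 29 from K562 and 34 from LNCap. The 293T density, 56.7 per Mb, was higher than in 78.3% of occupied 500 kb bins and was the highest of that list in the 14 windows. SIX2, which keeps nephron progenitors undifferentiated, had 20, 25 and 19 silencers in its window (chromosome 2, 44.75 to 45.3 Mb), with a 293T ratio of 0.985. This was the window with the most regions common to 293T and LNCap alone: 3 of the 4 such regions in all windows lay there, near 45091830, 45101400 and 45179701. The chromosome 14 window held 26 silencers from 293T, 38 from K562 and 23 from LNCap. Its K562 count, at 69.1 per Mb (48.9 to 94.8), lay above the K562 mean and was 1.51 times the mean of the other lists. Even so, K562 stood at 1.70 times LNCap with an interval of 0.985 to 2.98.

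The windows of the genes that draw out or form the ureteric bud had densities whose intervals included the list mean in every line. The GDNF window (chromosome 5, 37.55 to 38.1 Mb) held 24 silencers from 293T, 25 from K562 and 19 from LNCap, and the RET window (chromosome 10, 42.8 to 43.4 Mb) held 24, 19 and 26. RET encodes the receptor tyrosine kinase that answers GDNF. Its K562 count was 0.745 times the mean of the other lists, the lowest K562 ratio among the 12 windows with at least 20 silencers. The RET window was also sparser than its surroundings in K562, at 31.7 per Mb against 70.5 in the 1 Mb on either side, with 40.0 against 51.5 in 293T and 43.3 against 66.0 in LNCap. EMX2, a homeodomain factor of the bud epithelium, had 19, 20 and 14 silencers in its window (chromosome 10, 117.3 to 117.8 Mb). With SALL1, EMX2 and GDNF had the highest 293T ratios, 1.21 and 1.18, but 293T against LNCap gave intervals of 0.709 to 3.22 for EMX2 and 0.729 to 2.68 for GDNF.

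WNT4, the signal that turns mesenchyme into epithelium, had the fullest window over the 3 lists together. Its window on chromosome 1 (21.85 to 22.4 Mb) held 24 silencers from 293T, 37 from K562 and 45 from LNCap, or 43.6, 67.3 and 81.8 per Mb. The K562 interval (47.4 to 92.7) and the LNCap interval (59.7 to 109) lay above the means of those lists, whereas the 293T interval (28.0 to 64.9) included its mean. The 293T count was 0.636 times the mean of the other lists, and 0.586 times LNCap, with an interval of 0.342 to 0.983. That was the only one of the pairwise intervals between lists in the 14 windows that did not include 1, and intervals were not adjusted for the number of pairs. Scaled on chromosome 1 alone, where 293T is sparser throughout (34.6 per Mb against 38.6 and 40.6), the ratio to the mean of the others was 0.672 and no longer past a fold of 1.5. The interval against LNCap was not computed on that scale. The surroundings were dense as well, at 78.5, 73.5 and 87.0 per Mb over the 1 Mb on either side.

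Over all windows the kidney-derived line did not stand apart from the other 2. The 265 silencers of 293T were 0.922 times the K562 number after scaling (0.779 to 1.09) and 1.00 times the LNCap number (0.845 to 1.19). Of the 12 windows with at least 20 silencers, 7 had a 293T ratio above 1, and the ratios ran from 0.629 to 1.44 with a median of 1.05, beside a median of 1.03 over the 500 kb bins. No window exceeded 1.5 times the mean of the others in 293T, where 16.4% of the bins did, and 2 (PAX2 and WNT4) were lower than the mean by more than that fold, where 14.5% of the bins did. In K562 the chromosome 14 window was over the fold and none was under it, beside 6.05% and 11.4% of the bins. In LNCap none was over it and the SALL1 window was under it, beside 8.00% and 13.9% of the bins. Summed over the lists, the 4 windows past the fold were not more than the shares of the bins would give. With 12 windows in each list, the difference from those shares was not tested.

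**Figure D3:**
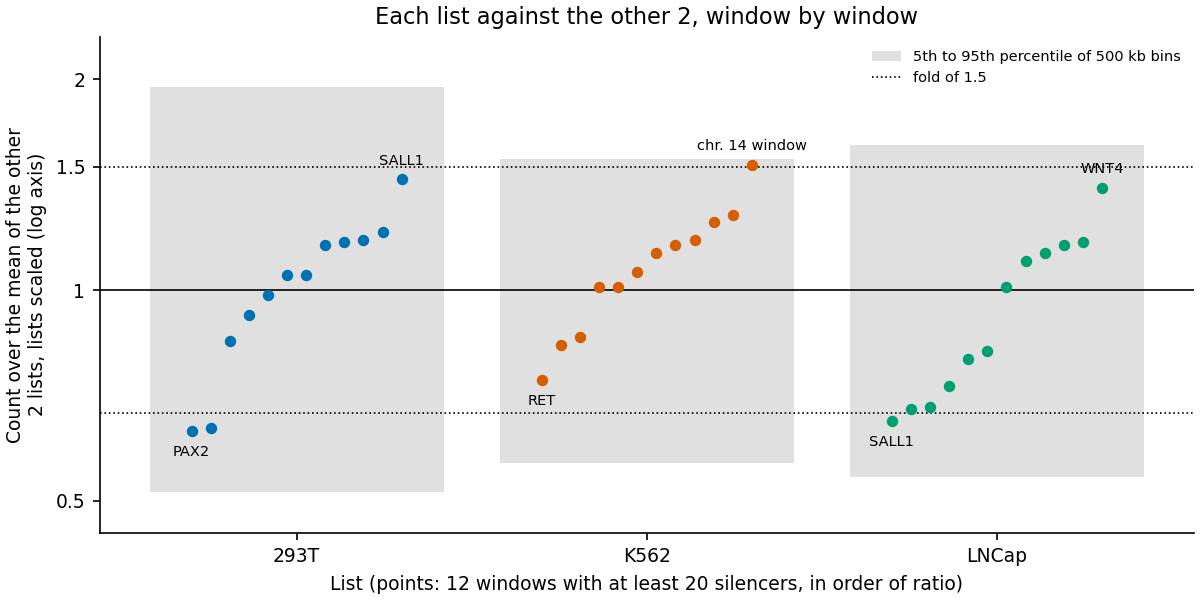
Count of each list over the mean of the other 2, scaled to list size (vertical log axis), with 1 point for each of the 12 windows that hold at least 20 silencers, ordered by ratio within each list (horizontal axis). Grey bands span the 5th to 95th percentile of 500 kb bins (0.515 to 1.95 in 293T), and every point lies inside its band.

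Within the windows, 293T silencers lay somewhat more toward the edges, a difference whose interval reached 1 when any of 5 single windows was left out. The central parts of the windows (4 Mb in all) held 114 silencers of 293T against 151 in the outer parts of equal length, a ratio of 0.755 (0.587 to 0.969). In K562 the numbers were 155 and 153, a ratio of 1.01 (0.805 to 1.28), and in LNCap 159 and 132, a ratio of 1.20 (0.950 to 1.53). Set against the other lists, the 293T count of the central parts was 0.788 times K562 (0.613 to 1.01) and 0.788 times LNCap (0.614 to 1.01), and both intervals included 1. In 293T the central part held fewer silencers than the outer part in 9 windows and more in 4. The largest shortfalls were in RET (6 central, 18 outer), PAX2 (6 and 14), WT1 (13 and 21), EMX2 (6 and 13) and GDNF (9 and 15). The reverse held in WNT4 (15 and 9), SALL1 (9 and 5), OSR1 (9 and 6) and SIX2 (11 and 9). Without any 1 of the 5 windows with the largest shortfalls the interval reached 1: the ratio was 0.812 (0.624 to 1.05) without RET, 0.788 (0.607 to 1.02) without PAX2, 0.777 (0.593 to 1.02) without WT1, 0.783 (0.603 to 1.01) without EMX2 and 0.772 (0.593 to 1.00) without GDNF. The centre of a window is not the start of its gene, and the split was made with the counts of the full windows known.

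**Figure D4:**
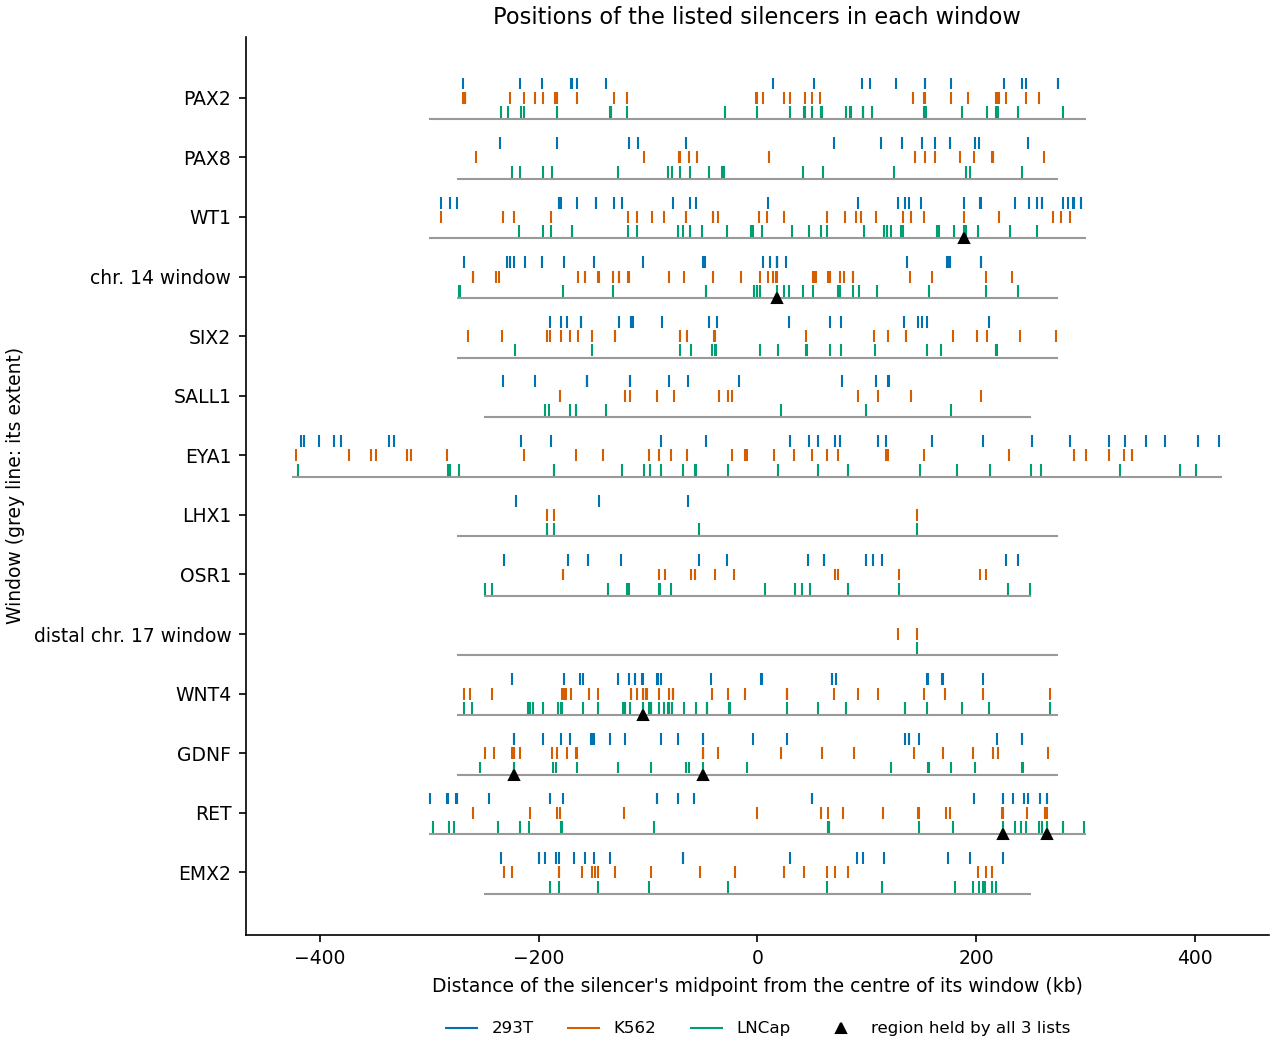
Position of every listed silencer (ticks, coloured by list) as the distance in kb from the centre of its window (horizontal axis), with 1 row per window; grey lines show the extent of each window and triangles mark the 7 regions held by all 3 lists. Ticks are missing from most of the LHX1 and distal chromosome 17 rows, and a gap of 89.6 kb shows left of the centre of the PAX2 row.

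Between pairs of lines, sharing of silencers in the windows resembled that of the whole lists, with the share of 293T silencers that overlapped K562 furthest above its list. Of the 265 silencers of 293T, 16 overlapped a K562 silencer by at least 1 bp (6.04%, Wilson interval 3.75 to 9.58), against 3.30% over the list. The overlap with LNCap was 12 of 265 (4.53%, 2.61 to 7.75), against 3.58%. Of 308 silencers in K562, 15 overlapped 293T (4.87%, 2.97 to 7.88), against 3.03%, and 44 overlapped LNCap (14.3%, 10.8 to 18.6), against 15.7%. Of 291 silencers in LNCap, 11 overlapped 293T (3.78%, 2.12 to 6.64), against 3.23%, and 44 overlapped K562 (15.1%, 11.5 to 19.7), against 15.4%. The interval of 293T in K562 is the only one of the 6 that leaves out the share of its whole list, and no adjustment for 6 comparisons was made. Counted from K562, the overlaps of the same lines gave an interval that included the share of the list. The intervals also treat silencers as independent. In the RET window, however, the 293T silencers at 43324101 and 43324201 overlapped the same K562 silencer. The GDNF, RET and WNT4 windows supplied 3 of the 16 each, and without the GDNF and RET windows the share was 4.61%.

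**Figure D5:**
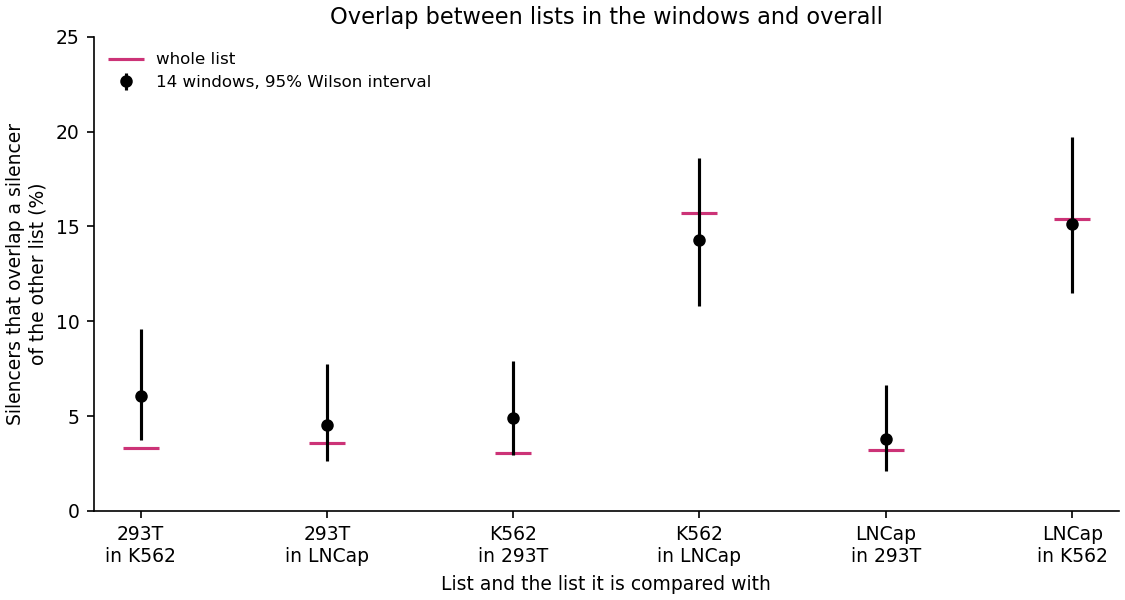
Percent of silencers that overlap a silencer of another list (vertical axis) for the 6 ordered pairs of lists (horizontal axis): black points give the 14 windows with 95% Wilson intervals and coloured dashes the whole list. The points of K562 with LNCap lie at 14.3% and 15.1%, and those that involve 293T between 3.78% and 6.04%.

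The pairing of K562 with LNCap was spread over most of the windows. Joining overlapping silencers of the 3 lists gave 797 regions in the windows, of which 55 were held by more than 1 list, and 7.10% of all merged regions of the genome were. K562 and LNCap alone held 35 (4.39%, interval 3.17 to 6.05), against 5.11% genome-wide. There were 9 of 293T and K562 (1.13%, 0.595 to 2.13), against 0.763%, and 4 of 293T and LNCap (0.502%, 0.195 to 1.28), against 0.856%. The remaining 7 were held by all 3. The PAX2 window gave 8 of the K562 and LNCap regions, the WNT4 window 6, and the WT1 and chromosome 14 windows 5 each. The OSR1, SALL1 and distal chromosome 17 windows gave no shared region of any kind. Within the windows, 3 of 46 overlapping pairs of K562 and LNCap had equal starts and ends. So did 1 of 16 pairs of 293T and K562 and 0 of 12 pairs of 293T and LNCap. The same shares over the whole lists were not counted here. In the WT1 window a K562 silencer at 32533451 to 32533501, with a score of 3.7, overlapped a LNCap silencer at 32533431 to 32533481 with a score of 3.0. The equal pair of 293T and K562 lay in the WNT4 window at 22330901 to 22330951, with scores of 2.6 and 2.4.

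Regions held by all 3 lists were found in 5 windows. They numbered 7 of 797 (0.878%, Wilson interval 0.426 to 1.80), against 0.372% of all merged regions of the genome. The interval leaves out the genome share, but no adjustment for the number of comparisons was made. Without the GDNF window 5 regions remained, and without the RET window also 5, for which no interval was computed. Overlaps of 293T with K562 in these regions also count toward the share of 293T in K562 above. The results are therefore not independent of each other. The GDNF window held 2, the RET window 2, and the WT1, chromosome 14 and WNT4 windows 1 each. The clearest was in the GDNF window at chromosome 5, 37774955 to 37775105. There a 293T silencer with a score of 4.7, the second highest of that list in the windows, overlapped a K562 silencer of 3.4 and a LNCap silencer of 2.4, and 50 bp were common to all. The other region of the GDNF window, at 37602192 to 37602492, was joined by a LNCap silencer of 300 bp, and its 293T and K562 silencers shared no base. In the RET window the regions lay at 43324021 to 43324271, where 54 bp were common to the lists, and at 43364451 to 43364646, where 5 bp were.

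The WNT4 region (chromosome 1, 22020627 to 22020751) had scores of 2.4 for 293T, 2.4 for K562 and 3.5 for LNCap and 50 bp in common. The WT1 region (chromosome 11, 32589159 to 32589301) had scores of 2.1, 2.3 and 2.2 and 8 bp in common. The region of the chromosome 14 window (60692401 to 60692751) was the widest, at 350 bp. It held K562 silencers with scores of 2.0 and 4.3, 1 silencer of 293T with a score of 2.4 and 1 of LNCap with a score of 2.5, and 48 bp were common to all lists. Apart from the GDNF region with the score of 4.7 and the K562 score of 4.3 on chromosome 14, the regions held by all lists had scores between 2.0 and 3.5.

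Several of these regions lay in tight groups of silencers. When silencers of all lists within 500 bp were joined, 16 of 650 groups in the windows held 4 or more silencers (2.46%), beside 2.25% of all groups in the genome. The WNT4 window had 5 of the 16 and the GDNF and PAX2 windows 3 each. The fullest groups, with 7 silencers each, lay in the GDNF window at 37602092 to 37602842 (2 of 293T, 3 of K562 and 2 of LNCap) and in the chromosome 14 window at 60692401 to 60693407 (4, 2 and 1). Members of all 3 lists were present in 8 of the 16 groups, a share that was not counted over the genome.

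The activity scores of the members did not exceed those of their lists. The median score was 2.2 in each line in the windows, against 2.3 over the 293T list and 2.2 over the K562 and LNCap lists. Scores above the list median were held by 105 of 265 silencers from 293T (39.6%, Wilson interval 33.9 to 45.6; 43.7% over the list), 138 of 308 from K562 (44.8%, 39.3 to 50.4; 46.4%) and 136 of 291 from LNCap (46.7%, 41.1 to 52.5; 49.4%). The highest 293T score, 4.8, belonged to a silencer of the WNT4 window at 21997250 to 21997301 that overlapped no other list, and a score of 4.5 belonged to one of the WT1 window at 32323251 to 32323301, also unshared. In K562 the scores next to the highest were 4.6 in the chromosome 14 window (60884409 to 60884550), shared with LNCap, and 4.4 in the WNT4 window (22048201 to 22048251), unshared. In LNCap a score of 5.0 lay in the WNT4 window as well (22180678 to 22180728) and was unshared. The highest score of a window ran from 2.4 to 4.8 in 293T, from 2.7 to 5.3 in K562 and from 2.2 to 7.4 in LNCap. Scores of 4 or more were held by 6, 5 and 6 silencers, of which 1, 3 and 2 overlapped another list. The matching numbers over the whole lists were not counted here. Most silencers were 50 bp wide (65.7%, 61.0% and 60.8% in the windows; 64.5%, 58.7% and 60.6% over the lists), and together they covered 20.9, 27.3 and 26.6 kb of the 8 Mb. Silencers that overlapped another list had a median score of 2.3 in 293T, 2.3 in K562 and 2.45 in LNCap, against 2.2 for the rest of each list in the windows. Their median width was 50 bp in 293T, as for the rest, and 100 bp in K562 and LNCap, against 50 bp for the rest.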

How the data were processed

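The 3 silencer lists give chromosome, start, end and activity for each line, per the file headers; the activity column is the authors' score, of unstated scale. Bowtie2, SAMtools and hg38 are named in the submitters' processing notes; the region caller, its threshold and the way libraries were pooled were not given in the sources used here. Positions are printed as deposited, and their first base may be counted from 0 or from 1. Lines with broken fields, an unknown chromosome or a width over 5000 bp were left out (58 in 293T, 12 in K562, 24 in LNCap).

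Windows, members and rules were chosen with earlier results of these data known. Lists were scaled by their number of silencers. Mean densities used the highest end per chromosome as its length (3086 Mb in all). Background bins were 500 kb long with at least 20 silencers over the lists (any silencer for density ranks), and a fold of 1.5 counted. Overlap was at least 1 bp. Intervals are exact Poisson for counts, exact conditional binomial for ratios and Wilson for shares, at 95%. All windows are named with their counts; further named are the highest and lowest ratios, regions held by all lists, top scores and, per pair of lists, the overlapping silencers with the highest lower score. Flanks, gaps, groups and the chromosome 17 stretch were added after the counts were seen. Analyses planned for an hg38 genome or annotation (motifs, base composition, other kidney genes) were not run, since the reference tables used here are of mouse. Alternatives were other overlap rules, window lengths, folds, score limits, merging, scaling by chromosome and leaving out each window. The procedures were tested on simulated data. The work was done in Python 3.11.15 with scipy 1.17.1 for intervals, pandas 2.3.3 and numpy 2.4.6 for tables, and plotted with matplotlib 3.10.9.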

Additional observations from a re-analysis of the deposited data

How the results depend on the processing

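No paired analysis was possible because each line has 1 pooled list. Density ratios were 0.702 in 293T for the central part of each window and 0.999 in LNCap for windows 2 times as long; without both chromosome 17 windows, a choice made after seeing the data, they were 0.936 in 293T, 0.925 in LNCap and, on the other side of 1, 1.01 in K562. The 293T ratio was 0.788 in the central parts. Shares depended on the overlap rule. For 293T in K562, 293T in LNCap and K562 in LNCap they were 2.26%, 1.51% and 5.84% with 50% of both silencers overlapping, 11.7%, 9.43% and 25.6% with midpoints within 500 bp, and 10.2%, 8.68% and 24.0% with silencers set to 300 bp. The 4 windows past the fold of 1.5, summed over lists, became 0 at a fold of 2 and 7 above the median score. Regions held by all 3 lists, 7 as reported and with alternatives also chosen after seeing the data, numbered 3 in the central parts and 12 in windows 2 times as long. Leaving out each window in turn gave density ratios of 0.769 to 0.876 in 293T, 0.834 to 0.945 in K562 and 0.740 to 0.872 in LNCap, a 293T ratio of 0.935 to 1.01, shares of 5.39 to 6.49%, 3.67 to 5.06% and 13.2 to 15.9% in the order above, and 5 to 7 regions held by all lists. Of 239 recomputed values, 210 stayed within the interval or on the same side of the fold, or, for numbers of windows or regions, within 1.5 times the main value. The 210 include every value with 1 window left out, 14 for each result so recomputed. Such values share most of their silencers with the main value and could hardly move, so the tally is no measure of stability. The read depth behind each call is unknown, and on 0 to 45 silencers per window and list, most differences between lists in single windows are within counting error.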
